A study of Mus musculus with 2 samples.

Results

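The nuclei described here were 1714 Slc6a11-side astroglia of the neonatal mouse subventricular zone (SVZ), 900 in a control library and 814 in a library of modeled intestinal perforation (MIP). They were selected from 28964 kept nuclei, 16850 control and 12114 MIP, by transcripts alone. A nucleus was kept with at least 500 detected genes and at most 5% mitochondrial unique molecular identifiers (UMIs, each counting 1 captured RNA molecule). It was taken as astroglial when at least 5 of the 10 genes Slc1a3, Slc4a4, Gja1, Aqp4, Fgfr3, Aldh1l1, Tnc, Slc39a12, Prex2 and Gpc5 were detected, with at most 1 UMI of Rbfox3, at most 1 of Pdgfra and at most 1 of Mki67, Top2a and Cenpf together. These 2097 astroglia were then sorted by sides, and nuclei with more UMIs of Slc6a11, Slc39a12 and Paqr8 than of Veph1 and Hgf formed the population described. The opposite side, called Veph1 and Hgf astroglia, held 173 control and 62 MIP nuclei, and 89 and 59 nuclei had equal UMIs of both sides.

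The SVZ is a germinal layer along the lateral ventricle. Mice raised by standard breeding were assigned to control or MIP on postnatal day 5, and the tissue was dissected 48 h later, on day 7, snap frozen and used for nuclear isolation. Each group is represented by 1 library, and neither the strain, the number of animals per library nor the time of day is given in the sources used here. MIP is named in the labels as a model of perforation of the intestine, so the nuclei come from a brain region that was not itself operated on as far as the labels state, and the question is what an early intestinal injury does to cells of this zone.

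Astrocytes take up glutamate and GABA, buffer potassium, pass ions and metabolites through gap junctions and supply lipids to neurons. In the SVZ, radial glia-derived cells with an astrocyte-like transcriptome also serve as neural stem cells, and ordinary astrocytes of the surrounding striatum and septum lie next to them. Slc6a11 encodes the GABA transporter GAT-3 of astrocytes, Slc39a12 a zinc transporter and Paqr8 a membrane progestin receptor. Veph1 encodes a PH-domain protein named for its expression in the ventricular zone and Hgf hepatocyte growth factor.

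With 1 library per group there was no replicate check, nuclei are not replicates, and no test was made: all values are descriptions of the pair of libraries. The 95% intervals in parentheses are exact and account for counting error alone. Sex differed as well. Xist, which is transcribed from the inactive X chromosome of female cells, had 12350 UMIs in the control members and 2 in the MIP members, and the Y-linked Ddx3y, Uty, Kdm5d and Eif2s3y together had 0 and 2499. Control nuclei were thus female and MIP nuclei male, and MIP against control cannot be told apart from male against female in any ratio below. The members held 5761325 control and 3969097 MIP UMIs, and their median depth was 5586.5 and 4228.5 UMIs and 2671.5 and 2114 genes. The libraries shared 115 cell barcodes, among them 3 control and 4 MIP members. Levels are given as CPM, the UMIs of a gene scaled to the total of the population in that library.

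The genes that chose the members describe the population first. Slc6a11 (chr6:114131241-114249952, plus strand, mm10) stood at 560 CPM in control and 488 in MIP members, against 99.4 and 85.6 in Veph1 and Hgf astroglia and 43.9 and 37.8 in all other kept nuclei. Slc39a12 stood at 225 and 265 CPM, and Paqr8 at 380 and 424. Both libraries thus showed these side genes several times above the opposite side, which is what the selection asked for. Aldh1l1, a folate enzyme and general astrocyte marker, stood at 200 and 250 CPM in the members and at 8.21 and 5.83 in other nuclei. Gpc5, a heparan sulfate proteoglycan of astrocytes, stood at 4185 and 4941 CPM against 496 and 453. In the control library 389 members held UMIs of all 3 side genes, 347 of exactly 2 and 164 of 1, and in the MIP library 289, 345 and 180. Just inside the border, 109 control and 100 MIP members exceeded the opposite side by 1 UMI, and just outside it 89 and 59 nuclei were tied; median depth was 4227 and 3271 UMIs inside and 4398 and 3443 outside. Likewise 121 and 143 members had exactly 5 of the 10 astroglial genes, and 84 and 86 nuclei that met the other limits had 4.

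**Figure D1:**
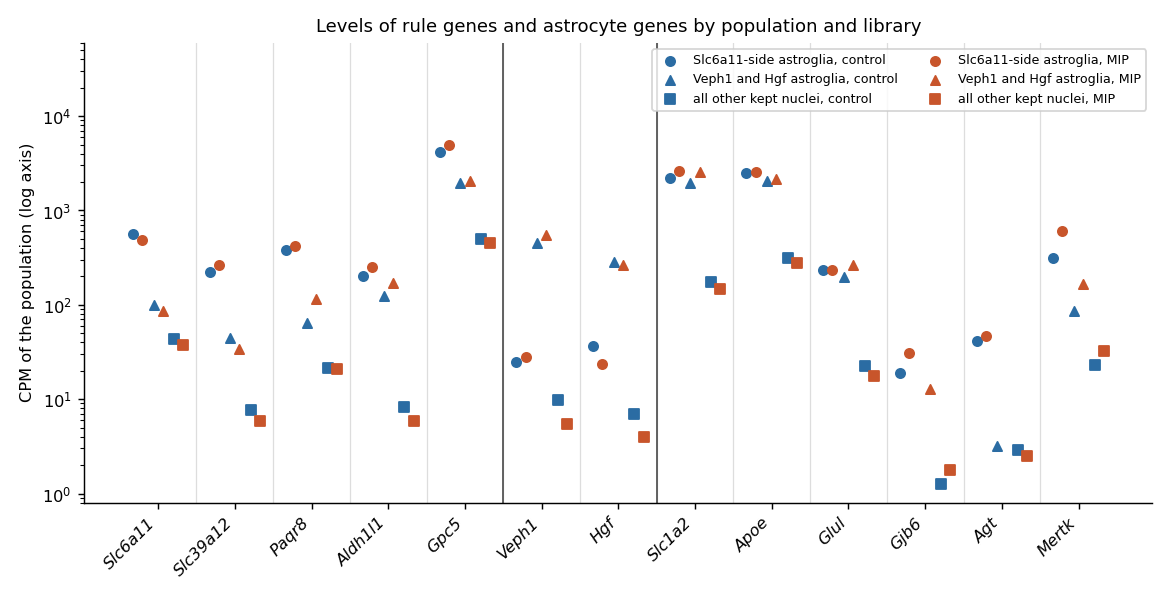
CPM on a log axis of the genes used by the selection (left of the second dark line) and of other astrocyte genes (right of it), in Slc6a11-side astroglia (circles), Veph1 and Hgf astroglia (triangles) and all other kept nuclei (squares), control in blue and MIP in orange; a level of 0 is not drawn. Slc6a11 lies at 560 and 488 CPM in the members, and the 2 libraries lie close together for most genes beside the distance between populations.

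Astrocyte genes that took no part in the selection ran with it. Of 36 such genes, all measured, 35 were at least 1.5 times above all other kept nuclei in both libraries, beside 16.5% of 17674 genes with at least 60 UMIs in each library over members and other nuclei. Slc1a2, the glutamate transporter GLT-1, had 12787 control and 10351 MIP UMIs in the members, or 2220 and 2610 CPM, against 174 and 148 CPM in other nuclei. Glul, which makes glutamine from glutamate, stood at 231 and 234 CPM against 22.2 and 17.6. After thinning each nucleus to 2000 UMIs, Slc1a2 was found in 90.6% of control and 94.2% of MIP members, and in 15.8% and 15.7% of nuclei with at least 3 UMIs of the neuronal gene Rbfox3, whose median depths were 14841 and 12146 UMIs; without thinning the shares were 98.3% and 98.2% against 50.2% and 45.9%. Genes outside the selection thus go with the name astrocyte, whereas a position in the parenchyma was not measured and rests on the name alone.

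Transcripts used as markers of other cells were present as well. The 12 neuron markers summed to 1496 CPM in control and 1475 in MIP members, or 21.5% and 19.7% of their level in all other nuclei, and 98% and 94.3% of members had at least 1 such UMI. The summed oligodendrocyte markers stood at 204 and 108 CPM, with 42.6% and 36.5% of those UMIs in 5 nuclei of each library, neuroblast markers at 369 and 251 CPM, and microglia markers at 172 and 141 CPM. Endothelium and pericyte markers were higher in the MIP members, at 77.1 and 123 CPM, above the 26.7 and 20.8 CPM of all other nuclei, with 10.1% and 22.4% of those UMIs in 5 nuclei of each library. Most of these UMIs were of 1 gene, Pdgfrb, with 345 and 353 UMIs spread over 257 and 273 members. Flt1 had only 23 and 38 UMIs and Rgs5 21 and 47, mostly in 5 nuclei of each library. Whether the Pdgfrb RNA came from the members or from other cells was not tested. Ependyma markers stood at 33.3 and 46.1 CPM, with 55.2% and 66.7% of the UMIs in 5 nuclei, and fibroblast markers at 18.9 and 20.9 CPM. The part of such RNA in the ratios below was tested only by keeping members with at most 2 neuron-marker UMIs, 185 control and 328 MIP nuclei, an alternative that was added once the data had been seen.

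The members made up 5.34% (5.01 to 5.69) of kept control nuclei and 6.72% (6.28 to 7.18) of kept MIP nuclei, with a log2 ratio of 0.33 (0.19 to 0.47). This difference moved with depth: among nuclei of at least 2000 UMIs the shares were 6.81% and 7.29%, and among nuclei of 2000 to 10000 UMIs 10.4% and 10.3%, a log2 ratio of -0.01. Among astroglia alone the members were 77.5% (74.9 to 79.8) in the control and 87.1% (84.7 to 89.1) in the MIP library, which is 0.17 (0.03 to 0.31) on the log2 scale, and 76.7% and 87.1% within 2000 to 10000 UMIs. With at least 1000 genes it was also 0.17 (0.03 to 0.31). It was 0.10 (-0.06 to 0.26) with a difference of at least 3 UMIs between sides and 0.12 (-0.05 to 0.30) with at least 7 of the 10 astroglial genes. With the selection made after thinning to 2000 UMIs it was 0.13 (-0.04 to 0.30). The last intervals include 0. The opposite side was the smaller in the MIP library, at 14.9% (12.9 to 17.1) of control and 6.63% (5.12 to 8.42) of MIP astroglia. Whether this reflects cells or the tissue piece taken at dissection was not tested.

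The sides of the astroglia differed in genes beyond those that sorted them, and these are given as a description because the sides were drawn from the same counts. Of 8922 genes with at least 60 UMIs, 590 (6.61%) were at least 1.5 times higher on the Slc6a11 side in both libraries and 345 (3.87%) at least 1.5 times lower. Gabbr2, a subunit of the metabotropic GABA receptor, stood at 412 CPM in control members against 28.5 on the opposite side, and at 355 against 55.6 in the MIP library, log2 ratios of 3.85 (3.31 to 4.46) and 2.67 (1.90 to 3.59). Grm5, the metabotropic glutamate receptor mGluR5 of young astrocytes, stood at 1319 against 244 CPM and at 1577 against 261, log2 ratios of 2.43 and 2.60. Atp13a4, a P5-type ATPase, had log2 ratios of 3.60 and 3.62, and Kcnd2, a voltage-gated potassium channel, of 2.17 and 2.14. Agt, angiotensinogen, had 237 control and 185 MIP UMIs in the members against 3 and 0 on the opposite side, and Svep1, an extracellular matrix protein, 216 and 164 against 0 and 0. The genes named here were chosen for a difference in both libraries, which fixes their direction. Mertk, a phagocytic receptor with which astrocytes engulf synapses, had a log2 ratio of 1.88 in each library. Grm5 and Kcnd2 were also high in all other nuclei, at 1998 and 2290 CPM in the control library; the summed neuron markers stood at 1496 CPM in control members and 1462 on the opposite side, and at 1475 and 1044 in the MIP library.

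On the opposite side stood Nrg1, the neuregulin 1 growth factor gene (chr8:31814551-32884029, minus strand), at 8934 control and 9598 MIP CPM against 1401 and 1899 in the members, log2 ratios of -2.67 (-2.72 to -2.63) and -2.34 (-2.41 to -2.27). Celsr1, a planar cell polarity cadherin, had log2 ratios of -2.31 and -2.41, Intu, a ciliary planar polarity effector, of -2.25 and -2.46, and Cdon, a hedgehog co-receptor, of -2.22 and -2.57. Plagl1, an imprinted zinc finger gene, had -3.08 and -2.33, and the matrix protease gene Adamts18 -2.55 and -2.88. By group, 14 of 36 astrocyte genes outside the selection were higher on the Slc6a11 side in both libraries and 0 lower, beside the 6.61% and 3.87% of all genes, with medians of 0.63 and 0.55. Among them Slc6a9, a glycine transporter, had log2 ratios of 2.91 and 1.02, Grm3, another glutamate receptor, 1.70 and 1.23, and Ntsr2, a neurotensin receptor of astrocytes, 1.49 and 0.70. Of 20 measured stem cell genes 5 were lower in the members in both libraries and 2 higher: the apical membrane gene Prom1 had -1.62 and -1.31 and Id4, an inhibitor of differentiation factors, -0.93 and -0.96, whereas Egfr, the EGF receptor, had 1.49 and 0.86 and Id2 had 2.23 and 1.498. In the glutamate and GABA list, which holds Slc6a11 itself, 11 of 26 were higher and 1 lower, the GABA-A receptor subunit gene Gabrb1 at -0.87 and -0.74.

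**Figure D2:**
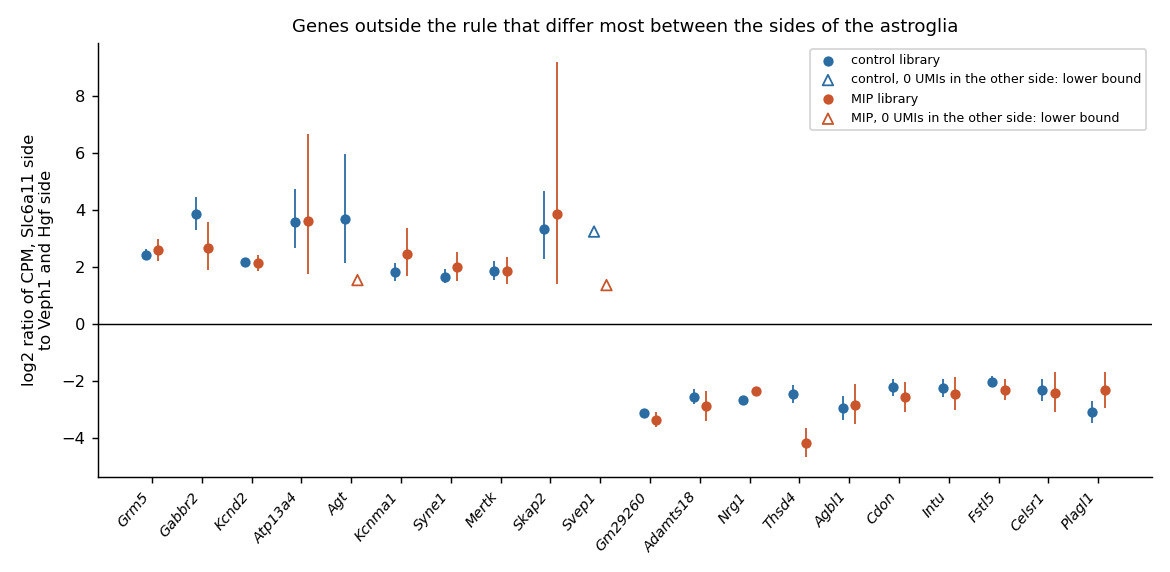
Log2 ratio of CPM in Slc6a11-side astroglia to Veph1 and Hgf astroglia for the 10 highest and 10 lowest genes outside the selection, control in blue and MIP in orange, with exact 95% counting intervals; open triangles mark the lower bound where the opposite side had 0 UMIs. Genes were chosen for a difference in both libraries; Atp13a4 lies at 3.60 and 3.62 and Nrg1 at -2.67 and -2.34.

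The members were not uniform among themselves. Of 6271 genes with a mean of at least 0.05 UMIs per thinned nucleus, the median variance to mean ratio was 1.03, where independent counts would give 1. Nrg1 stood far above it in both libraries, at 11.8 in control and 12.1 in MIP members. Malat1, a nuclear RNA, had 25.1 and 25.2, Luzp2, an astrocyte-enriched leucine zipper gene, 6.59 and 7.63, the cation channel gene Trpm3 17.9 and 8.01, and Cntn5, a contactin, 8.22 and 6.28. Adarb2, Nrxn3 and Meg3, genes that neurons also carry, ranged from 7.42 to 9.40. Ptgds, a prostaglandin synthase of meninges, and Dnah12, an axonemal dynein of ependyma, also ranked high, but 85% and 55.3% of the Ptgds UMIs and 88.5% and 98.2% of the Dnah12 UMIs lay in 5 nuclei of each library.

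A split by Nrg1, chosen after this variation was seen, ordered several genes that differed between the sides, though not all side genes of the selection. After thinning to 2000 UMIs, 494 control and 380 MIP members held no Nrg1 UMI, 236 and 224 held 1 to 4, and 164 and 190 held 5 or more, or 55.3%, 26.4% and 18.3% of the control and 47.9%, 28.2% and 23.9% of the MIP members. Slc6a11 had a mean of 1.46, 1.03 and 0.634 UMIs in the control and of 1.21, 0.871 and 0.816 in the MIP subsets, in order of Nrg1. Kcnd2 had 4.48, 3.06 and 1.04 in the control and 4.94, 2.84 and 1.73 in the MIP subsets. Both were thus lowest where Nrg1 was highest. Of the other side genes of the selection, Slc39a12 had 0.496, 0.462 and 0.335 in the control but 0.595, 0.527 and 0.626 in the MIP subsets. Paqr8 differed less, at 0.907, 0.75 and 0.75 in the control and 0.95, 0.911 and 0.868 in the MIP subsets. Gabbr2 had 1.07, 0.720 and 0.220 in the control subsets, Slc4a4, a bicarbonate cotransporter, 3.37, 2.39 and 1.43, and Npas3, a transcription factor of astrocytes, 9.79, 7.59 and 4.23, with the same order in the MIP library. Luzp2 ran the other way, at 3.40, 4.27 and 7.14 in the control and 4.39, 5.99 and 10.1 in the MIP library, as did Prex2, at 0.132, 0.233 and 0.695 and at 0.337, 0.402 and 0.816. Veph1, of the opposite side, had 0.0304, 0.0212 and 0.171 in the control subsets. Slc1a2 did not fall with Nrg1 in either library. It had 4.26, 5.09 and 4.96 in the control subsets and rose in the MIP subsets, at 4.88, 5.87 and 6.81. Slc1a3 had 4.96, 4.53 and 4.58 in the control subsets and 7.14, 7.04 and 8.29 in the MIP subsets. The summed neuron markers had 1.84, 3.04 and 2.40 UMIs in the control and 1.86, 2.80 and 2.78 in the MIP subsets, and the median depth before thinning was 5545.5, 5982.5 and 5438.5 and 4194, 4570 and 4235 UMIs. Their part in the order of the side genes was not tested.

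**Figure D3:**
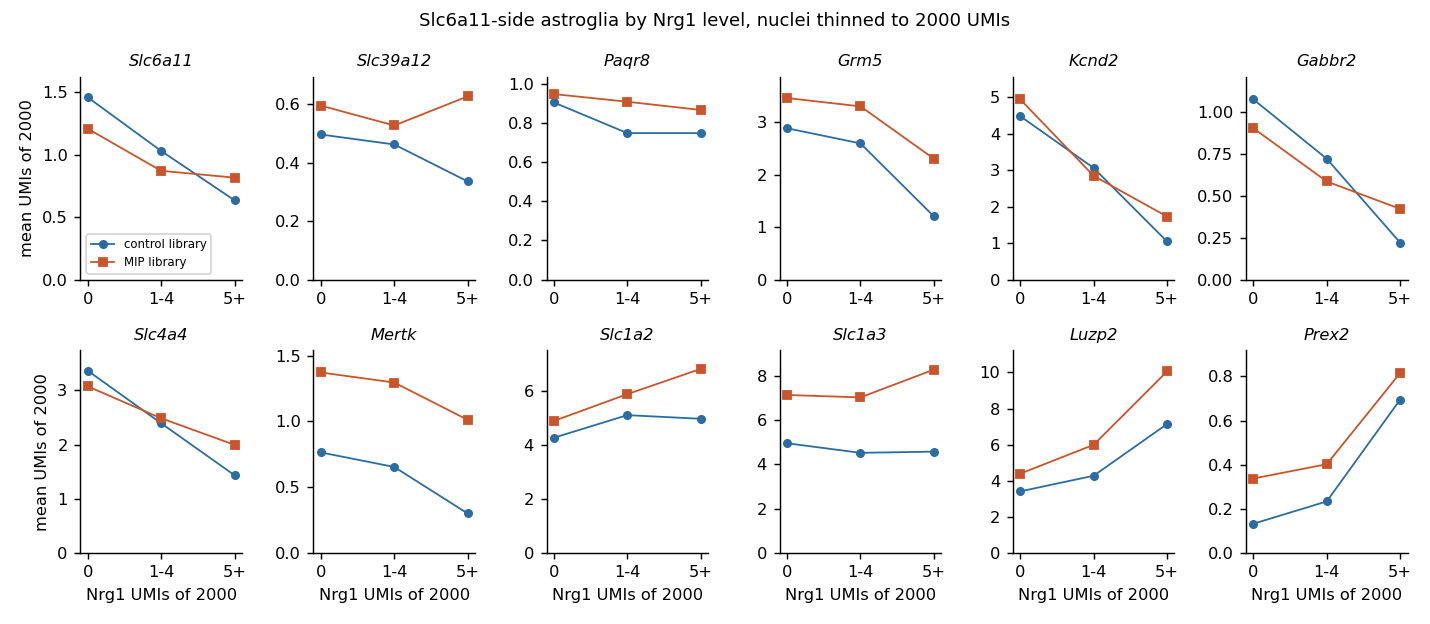
Mean UMIs per nucleus, after thinning to 2000 UMIs, of 12 genes in Slc6a11-side astroglia with 0, 1 to 4 and 5 or more Nrg1 UMIs, control in blue circles and MIP in orange squares. Slc6a11, Kcnd2 and Gabbr2 are lowest and Luzp2 and Prex2 highest in the nuclei with 5 or more Nrg1 UMIs, in both libraries.

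Against the control library, the MIP members carried more RNA of many glucocorticoid-induced, clock and STAT3 genes and of the lipid gene Acsl3, and less of Ncan, Fabp7, Ptch1 and the collagen gene Col12a1. Of 11942 measured genes, those with at least 60 UMIs over both libraries, 480 (4.02%) were at least 1.5 times higher in the MIP library and 1333 (11.2%) at least 1.5 times lower, with a median log2 ratio of -0.09. TMM scaling, which aligns the bulk of the genes, would put every ratio 0.08 higher on the log2 scale and give 696 higher and 950 lower. The shares of 4.02% and 11.2% are the background for every count of members below.

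Fkbp5, a co-chaperone of the glucocorticoid receptor that the receptor itself induces (chr17:28399094-28517527, minus strand, mm10), had 170 UMIs in control and 732 in MIP members, or 29.5 and 184 CPM. The MIP level was 6.25 times the control level, a log2 ratio of 2.64 (2.40 to 2.89). Fkbp5 UMIs were found in 11% of control and 47.1% of MIP members, and after thinning in 4.47% and 28.6%; in the nuclei with at least 3 Rbfox3 UMIs the thinned shares were 9.13% and 17.2%. In all other nuclei its log2 ratio was 1.07 and in Veph1 and Hgf astroglia, on 23 and 14 UMIs, 1.30 (0.23 to 2.32). The ratio moved with depth. In members under 4000 UMIs, of 4000 to under 7000 and of 7000 or more, the control level was 15.0, 15.9 and 46.4 CPM and the MIP level 179, 189 and 183 CPM, giving log2 ratios of 3.58, 3.57 and 1.98. The direction was the same in each range and the size was not. Without the nuclei that Scrublet scored highest as doublets it was 3.10 (2.79 to 3.41).

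Several other targets of the glucocorticoid receptor were higher as well, though 12 of the 22 measured list genes stayed within a ratio of 1.5. Of 30 list genes 22 were measured; 9 were at least 1.5 times higher and 1 lower, beside the background of 4.02% and 11.2%, with a median of 0.43 against -0.09 over all measured genes and -0.02 for the same list in all other nuclei; in members with at most 2 neuron-marker UMIs the median was 0.93. Tsc22d3, the glucocorticoid-induced leucine zipper, had 106 and 226 UMIs and stood at 1.63 (1.29 to 1.98) on the log2 scale. Zbtb16, a zinc finger transcription factor, had 110 and 195, at 1.36 (1.02 to 1.71), and Hif3a, a hypoxia factor family member, 264 and 469, at 1.37 (1.15 to 1.59). All of these were higher in the MIP members, while in other nuclei they lay between 0.16 and 0.20. The metallothioneins Mt1 and Mt2, which bind zinc and copper, had 855 and 1223 and 274 and 458 UMIs, at 1.05 (0.93 to 1.18) and 1.28 (1.06 to 1.501), against -0.15 and -0.04 in other nuclei. Mertk (chr2:128698956-128802894, plus strand) had 1813 and 2430 UMIs, or 315 and 612 CPM, at 0.96 (0.87 to 1.05). Sgk1, a kinase that glucocorticoids induce in many cells, was lower instead, with 127 and 58 UMIs, at -0.59 (-1.07 to -0.13), and the receptor gene Nr3c1 stood at -0.47 (-0.68 to -0.27). Mertk had log2 ratios of 1.38, 0.94 and 0.76 in the 3 depth ranges. In members with at most 2 neuron-marker UMIs, Tsc22d3 and Hif3a fell to 0.93 and 0.99, while Fkbp5 and Mertk stood at 2.90 and 1.24.

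The circadian clock is a loop in which Clock, Npas2 and Arntl activate the Per, Cry and Nr1d genes, whose proteins repress it. Of 24 clock genes 22 were measured, with 12 higher, 0 lower and a median of 0.73 on the log2 scale, against 0.19 for the same genes in all other nuclei. The repressors led. Nr1d1, the nuclear receptor REV-ERB alpha (chr11:98767932-98775333, minus strand), had 53 control and 173 MIP UMIs, or 9.20 and 43.6 CPM, a log2 ratio of 2.24 (1.79 to 2.72) against 0.49 in other nuclei. Ciart, a repressor of the loop, had 33 and 84 UMIs, at 1.89 (1.29 to 2.51). Per1 had 182 and 304, at 1.28 (1.01 to 1.55), Per2 150 and 247, at 1.26 (0.96 to 1.56), and Cry1 177 and 267, at 1.13 (0.85 to 1.41). Per2 and Cry1 were as high in other nuclei, at 1.30 and 1.17. Of the other repressors, Per3 had 503 and 430 UMIs and stood at 0.31, under a ratio of 1.5. Nr1d2 had 296 and 322 UMIs and ranged from 0.57 to 0.93 over the main values and the alternatives. The outputs Dbp and Hlf stood at 0.98 (0.63 to 1.34) and 0.81 (0.61 to 1.01). The activator genes differed among themselves: Npas2 stood at 1.06 (0.87 to 1.25), Clock at 0.33 (0.20 to 0.46) and Arntl at 0.13 (-0.04 to 0.29), the last not distinguishable from 0 at this depth. Nr1d1 had log2 ratios of 2.90, 2.25 and 1.61 in the 3 depth ranges and Per1 1.43, 1.20 and 1.14. In members with at most 2 neuron-marker UMIs the median was 0.50, over the list genes still measured there. Ciart fell to 1.28 (0.11 to 2.63) and Arntl to -0.06 (-0.40 to 0.28) in those members, while Per1 stood at 1.55 (0.95 to 2.20). Per1 belongs to the clock and the glucocorticoid list. Neither sampling time nor its match between the libraries is stated, so time of day and group cannot be told apart.

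**Figure D4:**
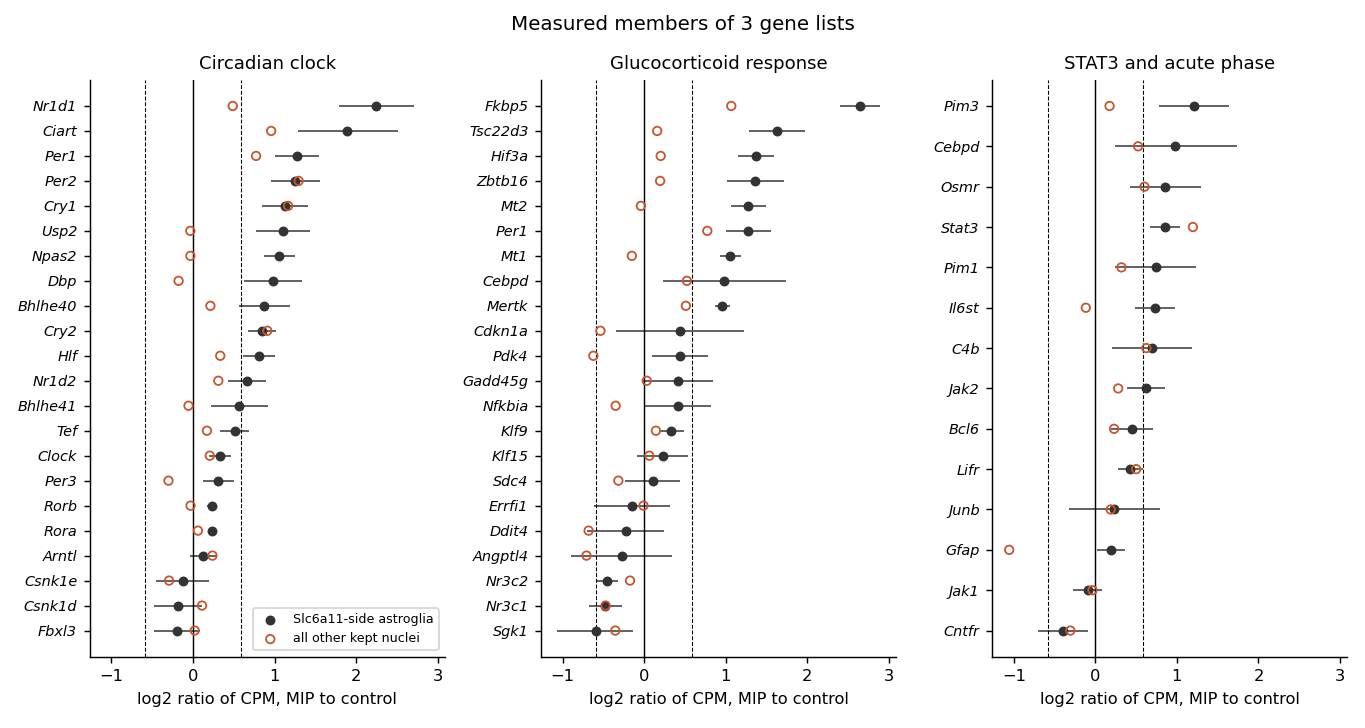
Log2 ratio of CPM, MIP to control, of the measured members of the clock, glucocorticoid and STAT3 lists in Slc6a11-side astroglia (filled points with exact 95% counting intervals) and in all other kept nuclei (open orange circles); dashed lines mark a ratio of 1.5 either way. Of the clock genes 12 of 22 lie right of the upper line and 0 left of the lower one.

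The E-box CACGTG, the palindromic site that Clock and Arntl proteins bind, was searched in the 250 bases before each RefSeq transcript start (GRCm38.p6). It occurred in 6.02% of 32851 windows and in 6.86% of 27025 genes, and in 5 of the 20 clock genes with a window, or 25%. The share was 29.2% among glucocorticoid genes, 7 of 24, and 15.8% among STAT3 genes, 3 of 19, so it was not particular to the clock list. The 5 clock genes were Bhlhe41, Ciart, Cry1, Per1 and Tef. For the repressors Ciart, Cry1 and Per1, whose RNA was higher in the MIP members, the stretch around the motif is shown 5′ to 3′ in the direction of transcription, from RefSeq, with the E-box in capitals. The Ciart stretch is chr3:95882252-95882358 on the minus strand, directly before the gene, with 3 motifs that begin 116, 58 and 44 bases before the start. The Per1 stretch is chr11:69098759-69098947 on the plus strand, with 1 motif 166 bases before this start. It lies inside the annotated Per1 gene (chr11:69095217-69109960), so this start is internal to the gene. The Cry1 stretch is chr10:85185065-85185164 on the minus strand, with 1 motif 60 bases before its start. All lie outside annotated exons.
Ciart: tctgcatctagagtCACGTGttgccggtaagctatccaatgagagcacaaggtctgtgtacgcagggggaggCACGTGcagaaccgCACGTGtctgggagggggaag
Per1: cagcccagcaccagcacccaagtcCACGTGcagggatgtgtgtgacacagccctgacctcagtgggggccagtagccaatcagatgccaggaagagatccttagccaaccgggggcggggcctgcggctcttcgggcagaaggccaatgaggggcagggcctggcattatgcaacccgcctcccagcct
Cry1: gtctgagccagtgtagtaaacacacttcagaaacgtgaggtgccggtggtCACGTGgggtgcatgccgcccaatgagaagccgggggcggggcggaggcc
A match describes the letters of these windows and not binding, which was not measured.

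The STAT3 pathway carries signals of interleukin 6 family cytokines. Of its 21 list genes 14 were measured, with 8 higher, 0 lower and a median of 0.66, against 0.25 in other nuclei. Among receptors, Osmr, the oncostatin M receptor, had 81 and 101 UMIs, at 0.86 (0.42 to 1.30), and Il6st, the shared subunit gp130, 264 and 301, at 0.73 (0.48 to 0.97), whereas Cntfr, the receptor subunit for ciliary neurotrophic factor, stood at -0.40 (-0.71 to -0.09). Of the transducers, Stat3 had 460 and 573 UMIs, at 0.85 (0.67 to 1.03), below its 1.20 in other nuclei, and the kinase gene Jak2 stood at 0.62 (0.39 to 0.85) and Jak1 at -0.09 (-0.27 to 0.09). Of the targets, the kinase gene Pim3 had 78 and 124 UMIs, at 1.21 (0.79 to 1.63), and the complement gene C4b 70 and 78, at 0.69 (0.21 to 1.18). Socs3, the feedback inhibitor, had 9 and 16 UMIs and was too low to be measured.

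Most genes of the reactive astrocyte list were too low to be measured. Of 34 list genes 12 were measured, with 3 higher and 1 lower, beside the background of 4.02% and 11.2%, and a median of -0.20. The 3 were Stat3, Osmr and Tm4sf1, a tetraspanin-like gene, and the 1 was Cd44, a hyaluronan receptor, at -0.60. Gfap, whose filament protein is abundant in stem cells and in reactive glia, had 649 and 511 UMIs, or 113 and 129 CPM, at 0.19 (0.02 to 0.36). Vim, another filament gene, stood at -0.16 (-0.61 to 0.27), Serpina3n had 19 and 11 UMIs and Lcn2 0 and 0. Tm4sf1 turned to -0.51 in nuclei of 2000 to 10000 UMIs. Of 13 measured NF-kB and cytokine genes 2 were higher, the subunit genes Relb at 0.92 and Rela at 0.80, and 0 lower, with a median of 0.40. Relb rested on 39 and 51 UMIs and Rela on 35 and 42. In members with at most 2 neuron-marker UMIs, Relb stood at 2.06 (0.52 to 4.05) and Rela at 0.06 (-1.35 to 1.56). Of 13 measured interferon genes 0 were higher and 2 lower, Gbp3, on 47 and 13 UMIs, at -1.32 and the transcription factor Irf9 at -0.70.

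Most genes of core astrocyte functions lay close to the control. Of the 36 astrocyte genes outside the selection 3 were higher and 2 lower beside the background of 4.02% and 11.2%, with a median of 0.05. Gjb6, the gap junction protein connexin 30 that matures after birth, had 108 and 121 UMIs, at 0.70 (0.32 to 1.09), Htra1, a secreted protease, stood at 0.63 (0.51 to 0.75), and Hepacam, a glial adhesion protein, had 1737 and 1812 UMIs, at 0.60 (0.50 to 0.69). Ncan, neurocan of the young extracellular matrix, had 2320 and 860 UMIs, or 403 and 217 CPM, at -0.89 (-1.01 to -0.78), with -0.88 in other nuclei. Its log2 ratios of -1.13, -0.96 and -1.06 in the 3 depth ranges were close together. Entpd2, an ATP-hydrolysing enzyme of progenitors, stood at -0.73 (-1.11 to -0.37). Of 27 measured genes of glutamate and GABA handling 4 were higher and 0 lower. Slc1a3, the transporter GLAST and a selection gene, stood at 0.60 (0.56 to 0.63), with 0.77, 0.58 and 0.21 in the 3 depth ranges, so it passed 1.5 in the shallowest range alone. Slc1a2 stood at 0.23 (0.20 to 0.27) and Glul at 0.02 (-0.10 to 0.14). Slc38a1, a glutamine transporter among the 4, had 27.2% and 47.2% of its UMIs in 5 nuclei of each library and turned to -0.35 in members with at least 7 of the 10 astroglial genes. Of 19 genes of gap junctions, potassium and water 3 were higher and 0 lower: Gjb6, Hepacam and the sodium-activated potassium channel gene Kcnt1, with 124 and 223 UMIs, at 1.38 (1.06 to 1.71). Kcnt1 moved with depth, at 2.47, 1.74 and 0.83 in the 3 depth ranges. The water channel gene Aqp4 stood at -0.37 (-0.50 to -0.23) and the potassium channel gene Kcnj10 at -0.52 (-0.78 to -0.25).

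Of 30 measured fatty acid genes 3 were higher and 4 lower, beside the background of 4.02% and 11.2%. Acsl3, which activates long-chain fatty acids at lipid droplets (chr1:78657825-78707743, plus strand), had 1019 and 1631 UMIs, or 177 and 411 CPM, at 1.22 (1.10 to 1.33), and stood at 0.02 in other nuclei. Elovl2, an elongase gene for long polyunsaturated chains, was higher too, at 0.61 (0.23 to 0.99). Among the lower genes, Acly, which makes cytosolic acetyl-CoA, had 336 and 122 UMIs, at -0.92 (-1.24 to -0.62), the elongase gene Elovl6 805 and 301, at -0.88 (-1.08 to -0.69), and Acss2, which makes acetyl-CoA from acetate, stood at -0.59 (-0.78 to -0.41). Other genes of fatty acid synthesis stayed under a ratio of 1.5: Fasn, fatty acid synthase, stood at 0.04, the carboxylase gene Acaca at 0.22, and the desaturase genes Scd2 and Fads2 at 0.04 and 0.17. The other lower gene was Fabp7, a binding protein given below. Of 28 cholesterol genes 3 were higher and 1 was lower, and the median was 0.03. Among the higher genes were the lipid exporter gene Abca1, at 0.67 (0.58 to 0.76), and the transcription factor gene Srebf1, at 0.59 (0.31 to 0.88). The lower gene was the synthesis enzyme gene Nsdhl at -0.86 (-1.16 to -0.57), while Hmgcs1, at the head of that pathway, stood at 0.07 (-0.06 to 0.20) against -0.78 in other nuclei. Apoe, the lipid carrier of astrocytes, had 14487 and 10210 UMIs and stood at 0.03. Of 29 genes of glucose and glycogen use 3 were higher and 1 lower: Irs2, an insulin receptor substrate, at 1.09 (0.72 to 1.47), the glycogen phosphorylase gene Pygb, with 1312 and 1639 UMIs, at 0.86 (0.75 to 0.96), the glucose transporter gene Slc2a1 at 0.63 (0.16 to 1.10), and the glycolytic gene Pgk1 at -0.71 (-1.09 to -0.34).

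Genes of stem cells and of growth factor pathways stood on both sides of the control. Of 23 measured stem cell genes 3 were higher and 3 lower. Their median was -0.11, against -0.61 in all other nuclei. Fabp7, the fatty acid binding protein of radial glia, had 3548 and 1460 UMIs, or 616 and 368 CPM, at -0.74 (-0.83 to -0.66). Egfr had 2546 and 1137, at -0.63 (-0.73 to -0.52), and Crym, a thyroid hormone binding protein, stood at -0.87 (-1.15 to -0.60). All 3 were lower in other nuclei too, at -1.58, -0.53 and -0.48. Slc1a3, Prom1 and Nes were the 3 higher ones, the last on 31 and 34 UMIs. Of 18 FGF and EGF genes 2 were lower, Egfr and Fgf2, on 47 and 14 UMIs at -1.21 (-2.19 to -0.32), and 0 higher. Of 12 measured hedgehog genes 1 was higher and 1 lower: the co-receptor gene Boc at 0.66 (0.42 to 0.89) and the receptor and target gene Ptch1, with 1830 and 819 UMIs, at -0.62 (-0.74 to -0.50). Ptch1 had -0.67, -0.49 and -1.08 in the 3 depth ranges, so it stayed under 1.5 in the middle range. Gli1, an effector and target, stood at 0.01 (-0.57 to 0.58) and Smo, the transducer, at 0.05 (-0.16 to 0.26). Of 20 Notch genes 1 was higher, the target Hes1, with 241 and 324 UMIs, at 0.96 (0.72 to 1.21), and 0 lower. Hes1 had 1.23, 0.41 and 1.14 in the 3 depth ranges and 0.56 in members with at most 2 neuron-marker UMIs, so it stayed under 1.5 in the middle range and in those members, while the target Hes5 stood at -0.19 (-0.33 to -0.06). Of 23 BMP and TGF-beta genes 2 were higher, the transducer genes Smad9 at 0.98 and Smad1 at 0.75, and 1 lower, the ligand gene Bmp6 at -0.66. Neither Smad9 nor Bmp6 held under every alternative: Smad9, on 28 and 38 UMIs, stood at 0.05 after thinning, and Bmp6, with 64.6% and 68.3% of its UMIs in 5 nuclei of each library, at -0.04 with a difference of at least 3 UMIs between sides. Of 23 measured synapse-shaping genes 1 was higher, Mertk, and 2 lower, the ligand gene Wnt7a at -0.70 (-1.13 to -0.29) and the matrix gene Tnr at -0.96 (-1.15 to -0.76), with 39.2% and 28% of Tnr UMIs in 5 nuclei of each library. Wnt7a stood at -0.11 (-0.92 to 0.72) in members with at most 2 neuron-marker UMIs.

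Genes outside the lists stood among the 12 highest and 12 lowest by the naming rule, which ranks genes by how close their interval comes to equal levels. Ccnd3, cyclin D3, had 134 and 344 UMIs, or 23.3 and 86.7 CPM, at 1.90 (1.61 to 2.20), with 1.38 in other nuclei. Its log2 ratios in the 3 depth ranges were 2.75, 2.02 and 1.22. Spsb1, an adaptor of ubiquitin ligases, had 22 and 73 UMIs, at 2.27 (1.56 to 3.03), and Crebrf, a regulator of stress and metabolism, 351 and 637, at 1.40 (1.21 to 1.59). Rhou, an atypical small GTPase, stood at 1.43 (1.16 to 1.72) and Lrrc8c, a volume-regulated anion channel subunit, at 1.59 (1.20 to 1.98). Each was higher in the MIP members. The RNA genes Gm22146 and Gm26917 stood at 2.75 (2.12 to 3.44) and 1.44 (1.33 to 1.56). Gm22146 (chr17:28446500-28456457, plus strand) lies within the span of Fkbp5 on the opposite strand. Whether its UMIs were separate from Fkbp5 RNA was not tested. Gm26917 (chr17:39843013-39846341, plus strand) lies beside AY036118 (chr17:39847113-39848035, minus strand), which was lower in the MIP members, as given below. Among the lowest, Col12a1, a fibril-associated collagen, had 177 and 26 UMIs, or 30.7 and 6.55 CPM, at -2.23 (-2.88 to -1.63), with -0.07 in other nuclei. Abtb2, an ankyrin repeat and BTB-domain gene, had 897 and 224 UMIs, at -1.46 (-1.68 to -1.25), Pdzph1, a PDZ-domain gene, 370 and 97, at -1.39 (-1.73 to -1.07), and the long RNA Gm48765 931 and 220, at -1.54 (-1.76 to -1.33). Gm10635, Gm39323 and D630008O14Rik, transcripts of unknown role, stood at -1.67, -1.53 and -1.94.

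Several of the lowest genes were equally low in the rest of the library. Pmch and Avp, peptide genes of hypothalamic neurons, had 76 and 1 and 202 and 34 UMIs in the members, log2 ratios of -5.71 (-11.03 to -3.19) and -2.03 (-2.60 to -1.50), beside -7.05 and -1.82 in all other nuclei, where they stood at 12.3 and 0.0931 and at 31.0 and 8.79 CPM. The part of free RNA in these ratios was not tested. AY036118, which overlaps ribosomal RNA sequence, and Cmss1, a gene of ribosomal subunit processing, stood at -1.28 and -1.35 in the members and -1.55 and -1.59 elsewhere. Slc6a20a, a proline transporter, had 175 and 42 UMIs, but 90.9% and 81% of them lay in 5 nuclei of each library, and its log2 ratio of -1.52 turned to 1.88 in nuclei of 2000 to 10000 UMIs.

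**Figure D5:**
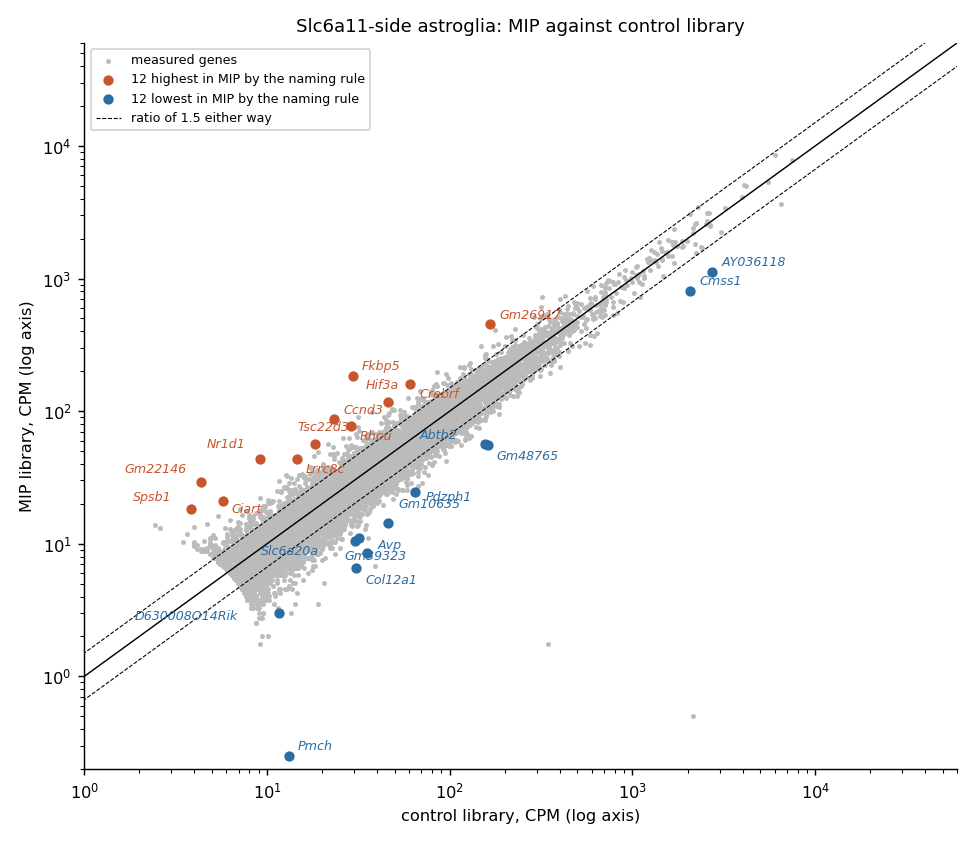
CPM of the measured genes in MIP members (vertical, log axis) against control members (horizontal, log axis), with the 12 highest genes in orange and the 12 lowest in blue; the solid line marks equal levels and dashed lines a ratio of 1.5 either way. Fkbp5 lies at 29.5 and 184 CPM, and Cmss1 at 2068 and 812.

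The main differences were also looked at within the Nrg1 subsets. In members with 0, 1 to 4 and 5 or more Nrg1 UMIs, Fkbp5 had log2 ratios of 2.89, 2.13 and 2.90, on 86, 59 and 25 control and 381, 180 and 170 MIP UMIs. Nr1d1 had 2.03, 2.25 and 2.75, and Acsl3 1.13, 1.37 and 1.31. These genes were thus higher in the MIP library in each subset. Mertk had 0.83 (0.71 to 0.95), 1.02 and 1.80 (1.53 to 2.07), on 152 control and 482 MIP UMIs in the last, and Ccnd3 ran the other way, at 2.66, 1.68 and 0.95. Ncan had -0.97, -0.96 and -0.45. The differences between subsets were not tested, since each rests on 1 library per group.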

How the data were processed

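Nuclei of snap-frozen SVZ were counted in 2 libraries, 1 per group, grouped by their labels. The authors deposited unnormalized UMI counts of 32285 genes per barcode, which they made with Cell Ranger 5.0.1 on mm10, per the submitters' processing notes. Members and gene lists were chosen with earlier results of these data known.

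Barcodes under 500 genes (0 control, 204 MIP) or above 5% mitochondrial UMIs (114 and 48) were left out. Doublets were kept in the main values. Scrublet in Scanpy 1.11.5 marked 0 control barcodes by its own threshold, so an alternative left out the top 13.5% of control and 9.69% of MIP barcodes by score, among them 146 and 83 members. UMIs were summed over members per library, scaled to CPM and compared as a log2 ratio with the exact conditional interval of 2 Poisson counts; shares have Clopper-Pearson intervals. Genes with at least 60 UMIs over both libraries were measured, and a list was described with at least 5 measured members. Named were the 12 highest and 12 lowest genes by interval bound, requiring 60 UMIs in the higher of the libraries and a level not below all other nuclei in at least 1 library, leaving out mitochondrial, ribosomal protein, haemoglobin and sex-linked genes. Also named were the 10 highest and 10 lowest genes that differed most between sides, the 10 most variable, and list members past a ratio of 1.5. List members named with smaller ratios were picked for their roles, some after their values were seen. Thinning to 2000 UMIs left out 6 control and 20 MIP members. TMM factors came from edgeR 4.0.16. Positions are 1-based from GENCODE M21 of mm10. The scripts were tested on simulated counts with known ratios. Some genes that the rules name are not reported here.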

Additional observations from a re-analysis of the deposited data

Results flagged for a closer look

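Among the 12 highest genes, the 12 lowest and the genes of interest, 6 had a ratio of MIP to control of opposite sign in the members and in all other kept nuclei, with both counting intervals clear of 0. Other list genes also had opposite signs, such as Mt1 at 1.05 and -0.15 and Grin2c, an NMDA receptor subunit gene, at 0.81 and -0.69. With 1 library per group none of these differences was tested. The log2 ratio of Gfap was 0.19 in the members and -1.06 elsewhere, and that of Id3, an inhibitor of differentiation factors, 0.35 and -0.52. Slc1a2 stood at 0.23 and -0.23, and the clock genes Dbp and Per3 at 0.98 and -0.18 and at 0.31 and -0.30; in members with at most 2 neuron-marker UMIs Per3 stood at -0.12 (-0.49 to 0.26). Slc6a20a stood at -1.52 and 0.44, on UMIs that lay mostly in 5 nuclei of each library. The other nuclei hold many cell types.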

How the results depend on the processing

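No paired analysis was possible because each group has 1 library. The share of members among kept nuclei, at a log2 ratio of 0.33, was 0.11 with at least 1000 genes, 0.10 with at least 2000 UMIs, -0.011 within 2000 to 10000 UMIs and 0.19 when the selection was made after thinning; the last and the neuron-marker limit were alternatives chosen after seeing the data. The counts of 480 higher and 1333 lower genes became 809 and 2191 at 20 UMIs. The lower count was 888 after thinning and 749 in members with at most 2 neuron-marker UMIs, the last among 6524 measured genes. In those members the glucocorticoid median was 0.93 in place of 0.43 and the clock median 0.50 in place of 0.73, each over the list genes still measured. Of 1238 values of 124 named genes under 10 alternatives, 1106 moved by less than their counting interval, 123 by more, and 9 that had passed a ratio of 1.5 changed sign. These were Slc38a1 at -0.35 with at least 7 astroglial genes, Slc6a20a at 1.88, Tm4sf1 at -0.51 and Rgs5 at -1.63 within 2000 to 10000 UMIs, and Slc38a1 at -0.18, Tm4sf1 at -3.69, Gbp3 at 0.48, Slc17a7 at -1.11 and Dlx6os1 at 0.61 in members with few neuron-marker UMIs; the cause was not tested. Of 417 values of the genes between sides, 0 that had passed 1.5 changed sign and 74 moved by more than their interval, and of 274 list medians 4 moved. Fkbp5 ranged from 2.64 to 3.43, Ciart from 1.28 to 2.79, Tsc22d3 from 0.93 to 1.71, D630008O14Rik from -2.27 to -0.64, Nr1d1 from 2.15 to 2.55, Mertk from 0.90 to 1.24 and Ncan from -0.98 to -0.81. Depth limits genes below 60 UMIs, which hold Socs3 and most reactive astrocyte genes, and the Veph1 and Hgf side of 62 MIP nuclei.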
